A study of Mus musculus with 12 samples.

Results

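The endoplasmic reticulum chaperone genes examined here are Hspa5, Hsp90b1, Pdia4, Pdia6, Dnajb9, Dnajb11, Dnajc3, Herpud1, Sdf2l1 and Xbp1. They were chosen by symbol, with earlier results of these data known. Xbp1 encodes a transcription factor, and the others have a role in folding or disposing of proteins in that organelle. The name chaperone genes is used below for all 10. Every probe set annotated to only one of these symbols was taken. All 10 genes were measured, through 23 probe sets, out of 18193 genes and 45037 probe sets on the arrays. A gene's value is the mean of its probe sets, of which Dnajc3 had 5, Xbp1 4, Hspa5 3, and Dnajb9, Dnajb11 and Sdf2l1 1 each.

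RNA came from cultured mouse astrocytes carrying an eGFP transgene that had been kept for 22 h on brain sections, and was hybridised to 12 one-colour Affymetrix arrays, 3 in each of 4 groups. The groups were adult cells on APdE9 sections, adult cells on wild-type (WT) sections, neonatal cells on APdE9 sections and neonatal cells on WT sections. APdE9 mice carry a chimeric mouse/human APPSwe transgene and a PS1-dE9 transgene, each under a mouse prion protein promoter, and the WT sections were from their C57Bl/6j littermates. The transgenes were thus in the sections, and the astrocytes of all groups carried eGFP. Adult cells were from mice of 6 to 8 weeks, whose isolation included Percoll and whose medium was DMEM/F12 plus G5. Neonatal cells were from pups, of 2 days by the protocol and 3 d by the treatment label, and were kept in DMEM with neither Percoll nor G5, so that age, isolation and medium cannot be told apart. All cells were loosened from the sections with trypsin, picked by their fluorescence and pooled (n = 3) before RNA isolation. The labels call the arrays biological replicates without saying which animals each pool held, so p-values measure the spread between these pools.

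The endoplasmic reticulum is where secreted and membrane proteins are folded. When unfolded proteins build up there, the unfolded protein response is set off by 3 sensors, Ern1 (IRE1), Atf6 and Eif2ak3 (PERK), which among other effects raise transcription of the chaperones themselves. Hspa5 (BiP) both folds proteins and holds the sensors inactive, and its RNA is a widely used readout of the response. Astrocytes secrete many proteins and make extracellular matrix, and the response has been studied widely in models of amyloid disease.

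The best known DNA elements of this response are the endoplasmic reticulum stress element ERSE (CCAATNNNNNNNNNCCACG), bound by Atf6 together with NF-Y, and ERSE-II (ATTGGNCCACG). RefSeq promoters (build GRCm38.p6, 250 bases before to 50 bases after the gene start) matched all 10 genes by symbol. Searched on both strands with no mismatch, ERSE was found in 4 of the 10 promoters and in 0.119% of the 32851 promoters in the table. ERSE-II was found in 2 of the 10, Herpud1 and Dnajb11, and in 0.0365% of all promoters. The element UPRE (TGACGTGG) was found in 0 of the 10 and in 0.676% of all. A match is a run of letters and not evidence of binding in these cells. The windows below are shown because they place the element known from this gene family in the genes whose RNA is described, and capitals mark the matched letters with 20 bases on each side.
Hspa5: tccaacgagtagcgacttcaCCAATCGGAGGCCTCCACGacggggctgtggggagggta
Hsp90b1: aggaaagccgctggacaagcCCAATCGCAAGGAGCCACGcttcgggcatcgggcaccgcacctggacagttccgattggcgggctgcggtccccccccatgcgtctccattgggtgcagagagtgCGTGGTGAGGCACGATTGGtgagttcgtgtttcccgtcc
Pdia6: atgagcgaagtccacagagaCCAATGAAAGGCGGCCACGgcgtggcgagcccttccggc
Dnajc3: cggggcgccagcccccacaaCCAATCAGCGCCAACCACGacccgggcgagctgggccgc
Herpud1: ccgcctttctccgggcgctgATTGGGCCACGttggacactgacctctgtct
In GRCm38.p6 these windows lie at chr2:34772005-34772063 (plus strand) for Hspa5, chr10:86705513-86705676 (minus strand) for Hsp90b1, chr12:17266471-17266529 (plus strand) for Pdia6, chr14:118937807-118937865 (plus strand) for Dnajc3 and chr8:94386357-94386407 (plus strand) for Herpud1. Hsp90b1 had 2 matches of ERSE, the second one on the other strand. The match began 65 bases before the start in Hspa5, 98 in Pdia6, 105 in Dnajc3 and 52 in Herpud1.

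The deposited values are log2 signals from which each probe set's median over the 12 arrays had been removed. Differences between groups can be read from them, while the level of a gene, and whether it was above background, cannot. Array medians lay between -0.0385 and 0.0341. The signals had been normalised by RMA before deposit, so these medians cannot show whether an array had stood apart in its overall level. In bulk RNA such as this, fewer cells of a type and less RNA per cell cannot be told apart.

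Between APdE9 and WT sections none of the 10 genes differed past the threshold, in cells of either age, in the fit without a replicate block. The threshold throughout is an adjusted p of 0.05 from limma, with Benjamini-Hochberg adjustment over all genes. In adult cells 0 of 10 were called, where 17.7% of all genes were. An unadjusted p under 0.05 was found for 2 of the 10 and for 5546 of all 18193 genes. In neonatal cells 0 of 10 were called, where 3.76% of all genes were. Here 3 of the 10 had an unadjusted p under 0.05, as did 2695 of all 18193 genes. With the replicate number as a block, a fit in which the numbers pair the neonatal arrays, 1 of 10 was called in neonatal cells (Herpud1), where 5.57% of all genes were. That block also called Dnajb9 in adult cells, where the numbers were not taken to pair the arrays. The median log2 difference of the 10 was -0.01 in adult cells and 0.08 in neonatal cells, against 0.05 and 0.00 over all genes. For the difference between the adult and the neonatal section effects, the count without the block was again 0 of 10. There 10.1% of all genes were called. For that difference 1 of the 10 had an unadjusted p under 0.05, as did 4231 of all 18193 genes.

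Cell age went with more changes than the section did, among all genes as well as among the 10. On WT sections 3 of the 10 genes, Xbp1, Hsp90b1 and Dnajb11, were higher in adult cells and 0 lower, where 14.9% of all genes were called higher and 30.1% either way. On APdE9 sections Herpud1 alone was higher and 0 were lower, where 11.7% of all genes were called higher and 23.5% either way. The numbers were taken to pair the arrays for age on APdE9 sections, as for the section in neonatal cells. With the block, which all 12 arrays share, 4 of the 10 were called on APdE9 sections, Herpud1, Dnajb9, Dnajc3 and Xbp1. There 27.9% of all genes were called either way. The median log2 difference of the 10 was 0.11 on APdE9 sections and 0.23 on WT sections, against 0.05 and 0.01 over all genes. The 3 adult arrays lay above the 3 neonatal ones for 3 of the 10 genes on APdE9 sections, where 20.8% of all genes did so, and for 5 of the 10 on WT sections, where 21.7% did.

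**Figure D1:**
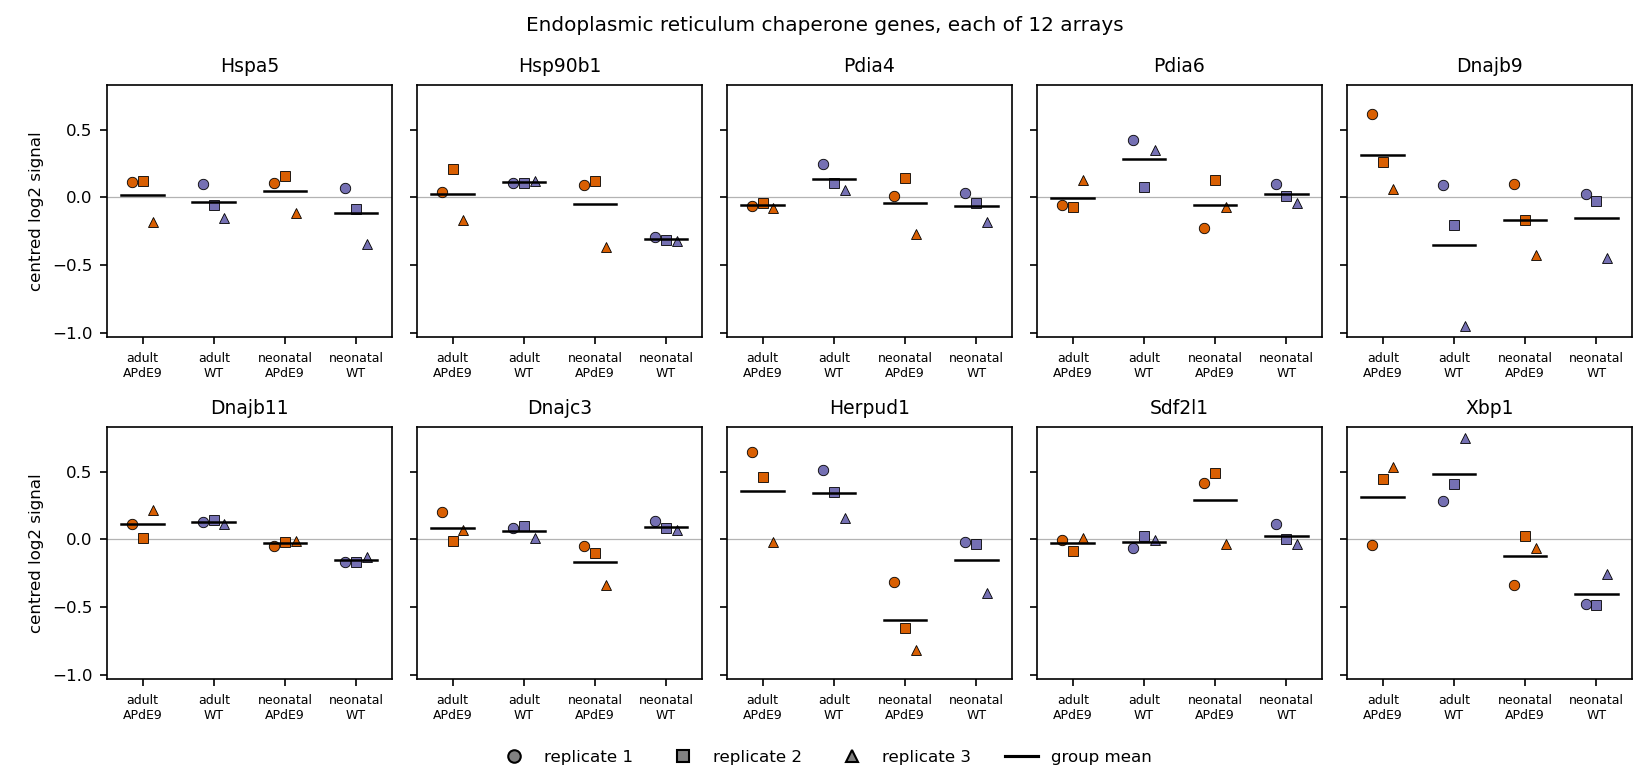
Centred log2 signal (vertical axis) of the 10 genes on each of the 12 arrays, by group (3 arrays each); marker shapes give the replicate number and horizontal lines the group means. The group means of Xbp1 and Herpud1 are higher in adult than in neonatal cells, although the Xbp1 arrays of both ages overlap on APdE9 sections. Hspa5 stays between -0.34 and 0.16 on every array, and replicate 3 is the lowest array for Hspa5, Pdia4, Dnajb9 and Herpud1 in all 4 groups.

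Of the main chaperones, Hspa5 (chromosome 2, 34772090 to 34776529), the Hsp70 of the endoplasmic reticulum, differed little between groups. Its log2 values were 0.12, 0.13 and -0.18 in adult cells on APdE9 sections and 0.10, -0.05 and -0.15 in adult cells on WT sections. They were 0.10, 0.16 and -0.11 in neonatal cells on APdE9 sections and 0.07, -0.08 and -0.34 in neonatal cells on WT sections. All 4 groups overlapped. The section effect, APdE9 minus WT, was 0.05 ± 0.13 (SE) in adult cells, with a 95% interval of -0.22 to 0.33, and 0.17 ± 0.13 in neonatal cells, with an interval of -0.11 to 0.44. The age effect, adult minus neonatal, was -0.03 on APdE9 sections and 0.08 on WT sections. In limma's fit the adjusted p of these 4 comparisons lay between 0.661 and 0.903, and none of its probe sets 1416064_a_at, 1427464_s_at and 1447824_x_at was called in any comparison.

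Hsp90b1 (Grp94; chromosome 10, 86690841 to 86705444), the Hsp90 of the endoplasmic reticulum, rose in adult cells on WT sections. Its values there were 0.11, 0.11 and 0.12, against -0.29, -0.31 and -0.32 in neonatal cells on WT sections, a gap wide beside the spread within each group. The log2 difference was 0.42 ± 0.13, a fold of 1.34, with an adjusted p of 0.0236 in limma's fit. The fit borrows the spread from all groups, and the call was lost on leaving out any single array of these 2 groups, with adjusted p between 0.0514 and 0.064. On APdE9 sections Hsp90b1 read 0.04, 0.21 and -0.16 in adult cells and 0.10, 0.12 and -0.37 in neonatal cells, groups that overlap, and the difference was 0.08 with an adjusted p of 0.72. Its 2 probe sets differed in size on WT sections, at 0.63 for 1438040_a_at, which was called (adjusted p = 0.0336 over all probe sets), and 0.21 for 1415889_a_at, which was not (0.178). The call of 1438040_a_at was likewise lost without any one of the 6 arrays (adjusted p 0.0665 to 0.087).

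Its section effect was -0.08 ± 0.13 in adult cells and 0.26 ± 0.13 in neonatal cells. The neonatal APdE9 array numbered 3 lay at -0.37, apart from the other two of its group. Without that array the difference between the 2 section effects was -0.50 with an adjusted p of 0.0447, against -0.34 and 0.284 with it. Without one of the other arrays it came as near 0 as -0.25, with adjusted p up to 0.469.

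Sdf2l1 (chromosome 16, 17130138 to 17132383) encodes a small protein of the endoplasmic reticulum that works with Hspa5 and its J-domain partners. It read 0.42, 0.49 and -0.03 in neonatal cells on APdE9 sections, against 0.12, 0.00 and -0.03 in neonatal cells on WT sections. In adult cells its values stayed between -0.09 and 0.01 on APdE9 sections and between -0.07 and 0.03 on WT sections. The neonatal APdE9 group was thus split, with 2 arrays above all others of the series and 1 among them. The section effect was 0.26 ± 0.12 in neonatal cells (adjusted p = 0.322) and -0.01 ± 0.12 in adult cells (0.968). Adult minus neonatal on APdE9 sections was -0.32 ± 0.12 with an adjusted p of 0.0757. These values turned on single neonatal APdE9 arrays. Without the one numbered 2 the neonatal section effect was 0.16 (adjusted p = 0.678), the difference between section effects -0.17 (0.597) and the age effect on APdE9 sections -0.22 (0.247). Without the one numbered 3 the neonatal section effect was 0.42 (adjusted p = 0.0227), the difference between section effects -0.43 (0.0353) and the age effect on APdE9 sections -0.48 (0.00162).

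**Figure D2:**
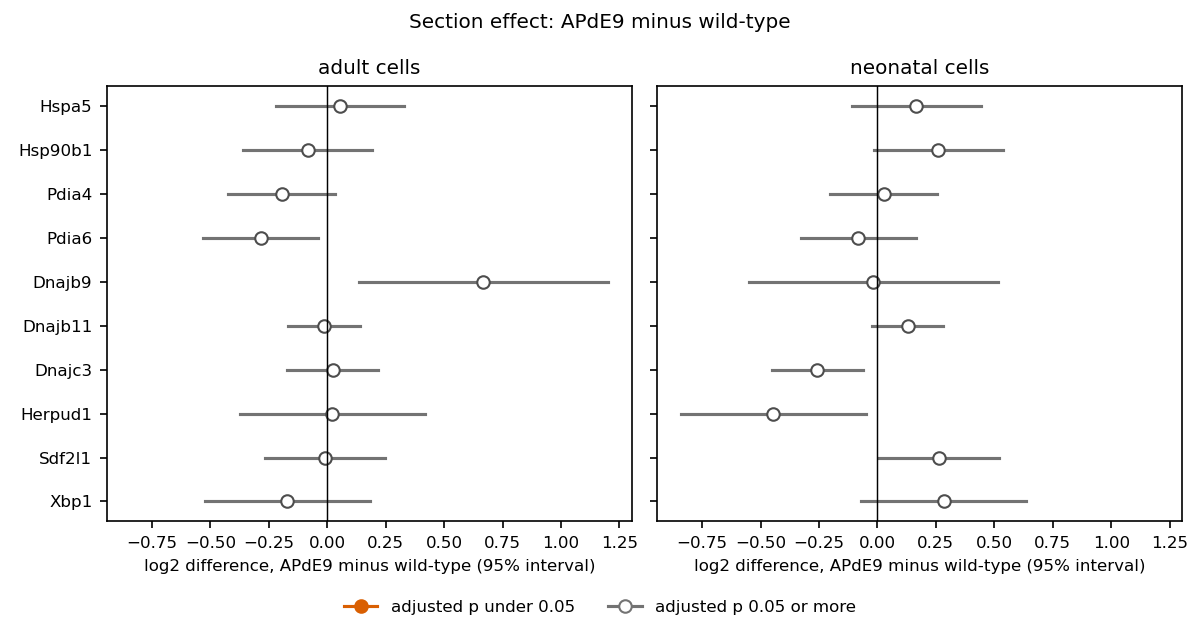
Section effect, APdE9 minus WT, as a log2 difference (horizontal axis, points) with its 95% interval (lines) for the 10 genes, in adult cells (left) and neonatal cells (right); open points did not pass an adjusted p of 0.05. Every point is open, and Dnajb9 in adult cells at 0.67 is the farthest from 0.

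Among the J-domain proteins, which hand clients to Hspa5 and start its ATPase cycle, Dnajb9 (ERdj4; chromosome 12, 44205897 to 44210068) varied most between arrays of one group. It read 0.62, 0.26 and 0.06 in adult cells on APdE9 sections, against 0.09, -0.20 and -0.95 in adult cells on WT sections. In neonatal cells it read 0.10, -0.17 and -0.43 on APdE9 sections and 0.02, -0.02 and -0.44 on WT sections. In each group the array numbered 1 was the highest and the one numbered 3 the lowest, and the groups overlapped in every comparison.

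The section effect on Dnajb9 in adult cells was 0.67 ± 0.24, a fold of 1.589, with an unadjusted p of 0.0182 and an adjusted p of 0.0823. Without the adult WT array numbered 1 it was 0.89 with an adjusted p of 0.0312, and without the one numbered 3 it was 0.37 with an adjusted p of 0.265. In neonatal cells the section effect was -0.02 ± 0.24, and the difference between both effects was 0.69 ± 0.35 (adjusted p = 0.266). The age effect was 0.48 on APdE9 sections (adjusted p = 0.193) and -0.21 on WT sections (0.609). With the replicate number as a block the age effect on APdE9 sections was called, with an adjusted p of 0.00839. The same block called the section effect in adult cells (adjusted p = 0.00157) and the difference between both section effects (0.0166). For the section in adult cells the numbers were not taken to pair the arrays.

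Dnajb11 (ERdj3; chromosome 16, 22857845 to 22879634), a soluble partner of Hspa5, rose by a small and even amount in adult cells on WT sections. Its values were 0.13, 0.15 and 0.11 there, against -0.17, -0.16 and -0.13 in neonatal cells on WT sections. The log2 difference was 0.28 ± 0.07, a fold of 1.217, with an adjusted p of 0.00828. On leaving out any one of the 12 arrays the gene stayed called, although as a probe set among all probe sets it was lost without adult WT array 1 or 2 or neonatal WT array 1 or 2 (adjusted p 0.0553 to 0.0681). On APdE9 sections it read 0.11, 0.01 and 0.22 in adult cells and -0.05, -0.02 and -0.01 in neonatal cells. These arrays did not overlap either, and the difference of 0.14 ± 0.07 had an adjusted p of 0.185. The section effect was -0.01 in adult cells and 0.13 in neonatal cells, where the 3 APdE9 arrays lay above the 3 WT ones; 7.31% of all genes did the same. Its adjusted p there was 0.461.

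Dnajc3 (p58IPK; chromosome 14, 118937932 to 118981702), a J-domain cochaperone also known as an inhibitor of Eif2ak3, was the member whose section effect differed with cell age at single probe sets. The 5 probe sets did not run together, so the mean for the gene hides opposite changes. As a gene its values were -0.05, -0.10 and -0.34 in neonatal cells on APdE9 sections, against 0.13, 0.08 and 0.07 in neonatal cells on WT sections. The 3 APdE9 arrays lay below the 3 WT ones, as did those of 10.4% of all genes. The difference was -0.26 ± 0.09 with an unadjusted p of 0.0135 and an adjusted p of 0.164. It was called in 1 of the alternative fits (adjusted p = 0.03 in limma's fit), and in none that left out an array (0.141 or more). In adult cells it read 0.20, -0.01 and 0.07 on APdE9 sections and 0.08, 0.10 and 0.01 on WT sections, which overlap, with a difference of 0.02 ± 0.09. The 2 section effects differed by 0.28 ± 0.13 (unadjusted p = 0.0453, adjusted p = 0.202).

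Probe set 1419163_s_at of Dnajc3 read 0.33, 0.12 and 0.42 in adult cells on APdE9 sections, against -0.02, -0.08 and -0.11 in adult cells on WT sections. In neonatal cells it read -0.12, -0.44 and -0.27 on APdE9 sections, against 0.29, 0.02 and 0.15 on WT sections. The APdE9 arrays thus lay above the WT ones in adult cells and below them in neonatal cells. The section effect was 0.36 ± 0.11 in adult cells (adjusted p = 0.0594 over all probe sets) and -0.43 ± 0.11 in neonatal cells (0.084). The difference between the effects was 0.79 ± 0.16 and passed the test (adjusted p = 0.0114). It was called on leaving out each of the 12 arrays.

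Probe set 1419162_s_at read 0.23, 0.02 and 0.07 in adult cells on APdE9 sections, against -0.31, -0.04 and -0.34 in adult cells on WT sections. It read -0.02, -0.34 and -0.38 in neonatal cells on APdE9 sections, against 0.13, 0.23 and 0.13 in neonatal cells on WT sections. It showed the same crossing, with effects of 0.34 ± 0.12 in adult cells and -0.41 ± 0.12 in neonatal cells. The difference of 0.75 ± 0.17 passed the test (adjusted p = 0.0194), but not without the neonatal WT array numbered 2 (0.0571). Across the 23 probe sets of all 10 genes these 2 were the ones called for this difference, both higher, where 3.36% of all probe sets were called higher and 6.73% either way.

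The other 3 probe sets of Dnajc3 did not pass. 1433887_at ran the same way, with a difference between effects of 0.68 and an adjusted p of 0.068. 1449373_at gave 0.14. 1449372_at ran the opposite way at -0.94 ± 0.33 (adjusted p = 0.131). It read 0.85, 0.86 and 0.75 in adult cells on WT sections, against 0.16, 0.01 and -0.01 in adult cells on APdE9 sections, and the neonatal APdE9 array numbered 2 stood apart from its group at 0.79. Which transcripts of Dnajc3 each probe set reads was not tested.

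**Figure D3:**
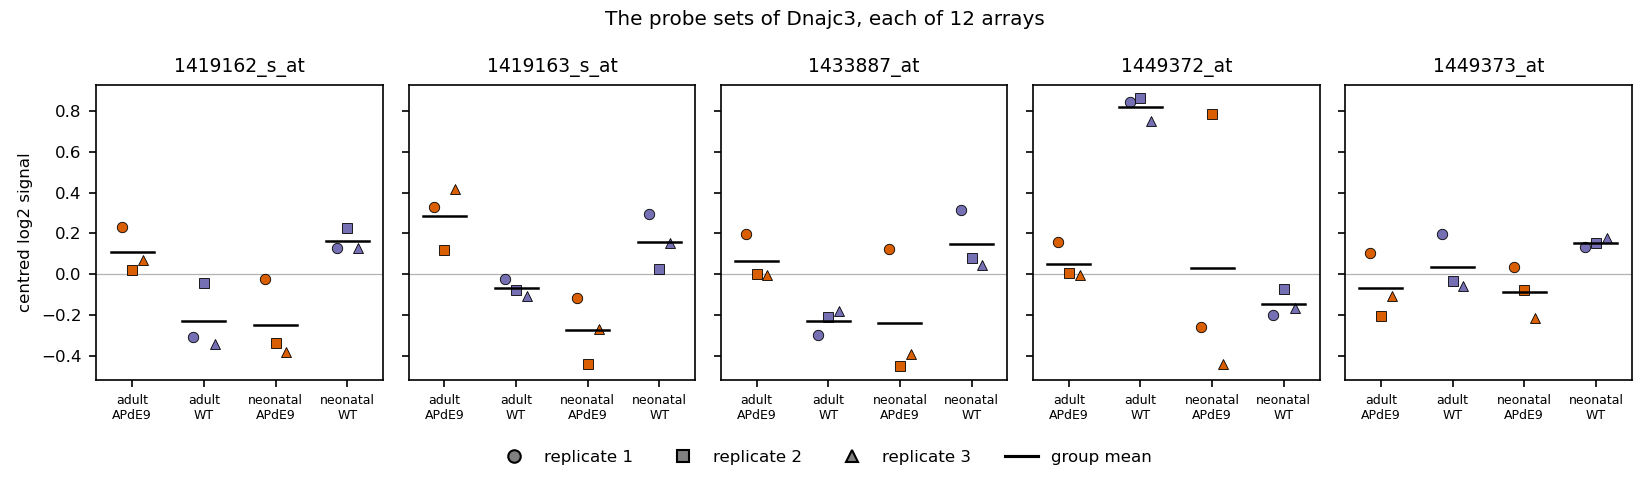
Centred log2 signal (vertical axis) of the 5 Dnajc3 probe sets on each of the 12 arrays, by group (3 arrays each); marker shapes give the replicate number and lines the group means. For 1419162_s_at and 1419163_s_at the APdE9 mean is above the WT mean in adult cells and below it in neonatal cells, while 1449372_at is highest in adult cells on WT sections.

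With age, Dnajc3 as a gene differed by 0.25 ± 0.09 on APdE9 sections (adjusted p = 0.0614) and by -0.03 on WT sections (0.859). On APdE9 sections the call appeared without the neonatal APdE9 array numbered 1 (0.31, adjusted p = 0.0407) and with the replicate block (adjusted p = 0.0396), while without the neonatal APdE9 array numbered 3 the difference was 0.16 (0.224). Its probe sets again split. On WT sections 1449372_at was higher in adult cells by 0.97 ± 0.24 (adjusted p = 0.00991) and 1419162_s_at lower, having fallen by 0.39 (adjusted p = 0.0304). The second of these calls was lost without adult WT array 1 or 3 or any neonatal WT array (adjusted p 0.0567 to 0.107). On APdE9 sections 1419163_s_at was higher by 0.56 ± 0.11 (adjusted p = 0.00387).

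The protein disulfide isomerases form and rearrange disulfide bonds in folding proteins. Pdia6 (P5; chromosome 12, 17266589 to 17284785) read -0.06, -0.07 and 0.13 in adult cells on APdE9 sections, against 0.43, 0.08 and 0.35 in adult cells on WT sections. Its section effect in adult cells was -0.29 ± 0.11, with an unadjusted p of 0.0274 and an adjusted p of 0.109, and the groups overlapped by 1 array. Without the adult WT array numbered 2 it was -0.39 with an adjusted p of 0.0468, and without the one numbered 1 it was -0.21 with an adjusted p of 0.292. In neonatal cells the arrays ran between -0.23 and 0.13 on APdE9 sections and between -0.04 and 0.10 on WT sections, and the section effect was -0.08 ± 0.11. The age effect was 0.06 on APdE9 sections and 0.26 ± 0.11 on WT sections (adjusted p = 0.115). The last value was also called without the adult WT array numbered 2 (0.36, adjusted p = 0.0364).

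At single probe sets, 1423648_at of Pdia6 was higher in adult than in neonatal cells on WT sections by 0.33 ± 0.10 (adjusted p = 0.031). That call was lost without adult WT array 1 or 2 or any neonatal WT array (adjusted p 0.0511 to 0.124). The other probe set, 1430983_at, gave 0.19 (adjusted p = 0.494).

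Pdia4 (ERp72; chromosome 6, 47796141 to 47813512) read -0.06, -0.04 and -0.08 in adult cells on APdE9 sections, against 0.25, 0.11 and 0.05 in adult cells on WT sections. The APdE9 arrays lay below the WT ones, as did those of 15.7% of all genes. The difference was -0.20 ± 0.11 with an adjusted p of 0.239. The 2 probe sets of Pdia4 disagreed here. 1416497_at read -0.14, -0.16 and -0.15 in adult cells on APdE9 sections, against 0.40, 0.38 and 0.28 in adult cells on WT sections, and had fallen by 0.51 (SE 0.14, adjusted p = 0.0355 over all probe sets), whereas 1450620_at gave 0.12. It was the only one of the 23 probe sets called for the section in adult cells, where 12.7% of all probe sets were called; in neonatal cells 0 of 23 were, where 2.00% of all were and 5 of the 23 had an unadjusted p under 0.05. The call was lost without any one of the 6 adult arrays (adjusted p 0.0609 to 0.108) or the neonatal WT array numbered 2 (0.0519). In neonatal cells the section effect on Pdia4 was 0.03 ± 0.11, and its age effect was -0.02 on APdE9 sections and 0.20 on WT sections (adjusted p = 0.194).

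Herpud1 (chromosome 8, 94386429 to 94395371) encodes a membrane protein of the endoplasmic reticulum that serves the degradation of misfolded proteins. It rose in adult cells on APdE9 sections. It read 0.64, 0.46 and -0.02 there, against -0.31, -0.66 and -0.82 in neonatal cells on APdE9 sections, and all adult arrays lay above all neonatal ones. The log2 difference was 0.96 ± 0.18, a fold of 1.943, with an adjusted p of 0.00185. On leaving out each of the 12 arrays in turn it stayed between 0.82 and 1.15, with adjusted p up to 0.0106. Its probe sets 1435626_a_at, at 1.03, and 1448185_at, at 0.88, were both called.

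On WT sections Herpud1 read 0.52, 0.35 and 0.16 in adult cells, against -0.02, -0.03 and -0.40 in neonatal cells. These arrays did not overlap, but the difference of 0.49 ± 0.18 had an adjusted p of 0.0608. It was called without adult APdE9 array 1 (adjusted p = 0.0465) or 3 (0.0274) or neonatal APdE9 array 1 (0.0491), arrays that enter through the shared spread. The age effects on both kinds of section differed by 0.47 ± 0.26 (adjusted p = 0.313). The section effect was 0.02 ± 0.18 in adult cells and -0.45 ± 0.18 in neonatal cells, and the neonatal value had an adjusted p of 0.257. With the replicate number as a block, the neonatal section effect was called (adjusted p = 0.0142). The block also called the age effect on WT sections (0.00113) and the difference between the age effects (0.0305). For age on WT sections the numbers were not taken to pair the arrays.

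Xbp1 (chromosome 11, 5520641 to 5525993), the transcription factor whose messenger RNA is spliced by Ern1 to give the active form, rose most of the 10 genes with age on WT sections. It read 0.29, 0.41 and 0.75 in adult cells, against -0.47, -0.49 and -0.26 in neonatal cells. The groups lay far apart, and the log2 difference was 0.89 ± 0.16, a fold of 1.853, with an adjusted p of 0.00106. All 4 probe sets were called, with differences between 0.82 and 0.98, and the gene stayed called on leaving out each array. On APdE9 sections it read -0.04, 0.44 and 0.53 in adult cells, against -0.33, 0.02 and -0.06 in neonatal cells. These arrays overlapped at adult array 1, and the difference of 0.44 ± 0.16 had an adjusted p of 0.0751. Without that array it was 0.61 (adjusted p = 0.0115), without adult APdE9 array 3 it was 0.33 (0.228), and with the replicate block it was called (adjusted p = 0.00857).

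Of the Xbp1 probe sets on APdE9 sections, 1420011_s_at and 1420886_a_at were called, both at 0.60 (adjusted p = 0.0366 and 0.0451). Leaving out 1 array ended the first call in 7 of 12 cases and the second in 10 of 12, with adjusted p up to 0.168. 1437223_s_at gave 0.44 (adjusted p = 0.0869) and 1420012_at gave 0.11. The section effect on Xbp1 was -0.17 ± 0.16 in adult cells and 0.28 ± 0.16 in neonatal cells, and the difference between these, -0.45 ± 0.23, had an adjusted p of 0.268. Whether these probe sets tell spliced from unspliced Xbp1 was not tested.

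**Figure D4:**
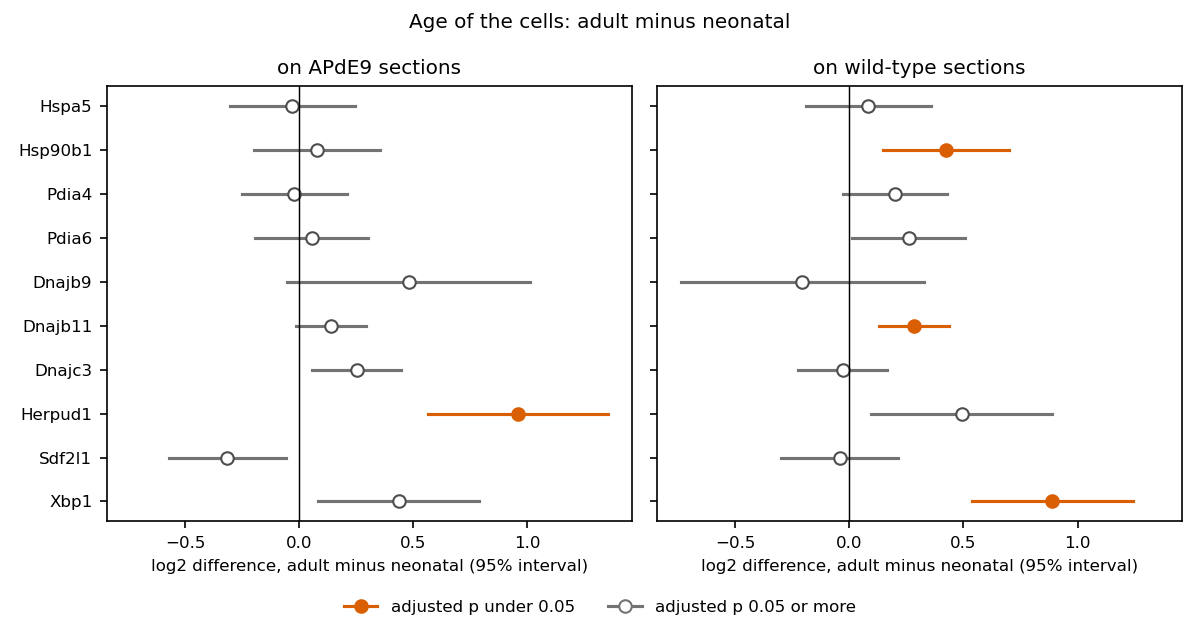
Age effect, adult minus neonatal, as a log2 difference (horizontal axis, points) with its 95% interval (lines) for the 10 genes, on APdE9 sections (left) and WT sections (right); filled points passed an adjusted p of 0.05. Herpud1 is filled on the left at 0.96, and Xbp1 (0.89), Hsp90b1 (0.42) and Dnajb11 (0.28) on the right.

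Over the 23 probe sets, 5 were called higher with age on APdE9 sections and 0 lower, where 16.4% of all probe sets were called, and 8 higher and 1 lower on WT sections, where 22.9% were. The age contrasts on APdE9 and WT sections and both section contrasts use the same 12 arrays in pairs, so they are not independent of one another.

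Marker genes of microglia and of astrocytes also differed with age, with larger medians than the chaperone genes. In adult minus neonatal cells, 17 of 19 microglia markers were lower on APdE9 sections, with a median log2 difference of -3.60 (C1qb, C1qc and C1qa fell the most), and 17 of 19 were lower on WT sections, with a median of -3.72. There 1 was higher, Tmem119, by 1.03 (adjusted p = 4.57e-05), and on APdE9 sections 0 were. The mean of the list lay between -1.45 and -1.33 on the adult APdE9 arrays and between -2.09 and -1.85 on the adult WT arrays, against 1.82 to 1.94 on the neonatal APdE9 arrays and 1.28 to 1.81 on the neonatal WT arrays. Astrocyte markers were lower too, 13 of 19 on APdE9 sections (1 higher) and 15 of 19 on WT sections (2 higher). Gfap fell by 3.45 on APdE9 sections and fell by 4.24 on WT sections. Per the protocol 99.6% ± 0.6 of the cells of both ages stained for GFAP and under 0.4% were microglia, before the sections were added. Of 14 fibroblast and mural cell markers 3 were higher and 2 lower on APdE9 sections, and 7 higher and 1 lower on WT sections, where Col1a1 rose by 4.06. The part of these cells in the age effects on the chaperone genes was not tested, and the centred values cannot show whether any marker was at background.

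For the section, 6 of 19 microglia markers were higher and 1 lower in adult cells, and 3 higher and 0 lower in neonatal cells. Of the 19 astrocyte markers 7 were higher and 4 lower in adult cells, and 0 higher and 7 lower in neonatal cells. Of the 14 fibroblast and mural cell markers 1 was higher and 5 lower in adult cells, where Tagln fell by 3.37, Col1a1 fell by 1.79 and Acta2 fell by 1.38, and 3 were higher and 1 lower in neonatal cells. The mean of that list lay between -0.05 and 0.16 on the adult APdE9 arrays, against 0.57 to 0.73 on the adult WT arrays. Of 11 oligodendrocyte markers 6 were higher and 0 lower in adult cells, led by Mbp (1.78), Olig2 (1.53) and Olig1 (1.30), and 2 were higher and 2 lower in neonatal cells. Their mean lay between -0.10 and 0.01 on the adult APdE9 arrays, against -0.66 to -0.64 on the adult WT arrays. Of 14 neuron markers 0 were higher and 3 lower in adult cells, and 0 higher and 1 lower in neonatal cells. The part of these cells in the section effects on the chaperone genes was not tested.

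The wider folding and secretion pathway was read from lists of genes, each given as the number called. For the section, 17.7% of all genes were called in adult cells and 3.76% in neonatal cells. For age, 23.5% were called on APdE9 sections and 30.1% on WT sections. These shares belong beside the counts below and those of marker genes above, and no list was tested against them. Among 27 other folding factors of the endoplasmic reticulum, 3 were higher and 3 lower on APdE9 than on WT sections in adult cells. Sdf2, a paralogue of Sdf2l1, rose by 0.44 ± 0.07 (adjusted p = 0.00147) and Ero1a, the oxidase that recharges the disulfide isomerases, fell by 0.47 (adjusted p = 0.0414). In neonatal cells 1 was higher and 0 lower. That one was again Ero1a, which rose by 0.62 ± 0.14 (adjusted p = 0.0334), and the difference between its section effects, -1.09 ± 0.20, passed the test (adjusted p = 0.00514). With age, 5 were higher and 1 lower on APdE9 sections, and 8 higher and 2 lower on WT sections. Dnajc10 (ERdj5), a J-domain protein and disulfide reductase that partners Hspa5, rose by 0.79 ± 0.09 on APdE9 sections and by 0.79 ± 0.09 on WT sections. The chaperone of glycoproteins Calr rose on WT sections by 0.47 ± 0.11 (adjusted p = 0.00521), and the disulfide isomerase that works with it, Pdia3, by 0.75 ± 0.15 (0.00218).

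Of 9 sensors and activators of the unfolded protein response, Ern1 (0.27 ± 0.08, adjusted p = 0.0268) and Atf6 (0.39 ± 0.11, 0.0353) rose and Creb3l1, a relative of Atf6, fell by 0.98 (adjusted p = 0.00147) on APdE9 sections in adult cells. In neonatal cells 0 of 9 were called by limma, and 1 had an unadjusted p under 0.05. Mbtps1, the protease that releases Atf6, rose with age by 0.48 ± 0.12 on APdE9 sections (adjusted p = 0.0117) and by 0.80 ± 0.12 on WT sections (0.000235). Atf6 itself fell by 0.36 in adult cells on WT sections (adjusted p = 0.0306).

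Of 22 genes of endoplasmic reticulum-associated degradation, the process that Herpud1 serves, 3 were higher and 1 lower on APdE9 sections in adult cells, and 0 were called in neonatal cells, where 1 had an unadjusted p under 0.05. With age 6 were higher and 0 lower on APdE9 sections, and 3 higher and 1 lower on WT sections. Sel1l, the adaptor of the ubiquitin ligase complex, rose in both, by 0.38 ± 0.09 on APdE9 sections (adjusted p = 0.00812) and by 0.42 ± 0.09 on WT sections (0.0034). Edem1, which marks misfolded glycoproteins for disposal, fell by 0.32 with the APdE9 section in adult cells (adjusted p = 0.0311) and rose with age on WT sections by 0.43 ± 0.09 (0.00355).

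Genes of the ATF4 branch, which Eif2ak3 and other kinases of the integrated stress response switch on, differed more. Of 20 measured, 2 were higher and 8 lower on APdE9 than on WT sections in adult cells, with a median of -0.46. Slc7a5, an amino acid transporter, fell by 1.59 (adjusted p = 4.23e-06), Chac1, which degrades glutathione, fell by 1.51 (8.95e-06), and Asns, asparagine synthetase, fell by 1.16 (2.08e-05). Slc7a11, the cystine transporter, rose by 1.44 ± 0.26 (adjusted p = 0.00225). In neonatal cells 4 were higher, among them Asns (0.48 ± 0.11, adjusted p = 0.0369), and 2 lower. The section effects on Asns differed between the ages by -1.64 ± 0.16 (adjusted p = 6.5e-05). The mean of the list was 0.28 in adult cells on WT sections and -0.15 in adult cells on APdE9 sections. In neonatal cells it was -0.02 on APdE9 sections and -0.09 on WT sections. The adult WT arrays, from 0.08 to 0.39, overlapped the neonatal APdE9 arrays, from -0.29 to 0.16.

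Of 23 genes of endoplasmic reticulum import and N-glycosylation 2 were higher and 0 lower with age on APdE9 sections, and 8 higher and 2 lower on WT sections, among them Sec61a1, the channel subunit (0.40 ± 0.08 on both kinds of section). Of 23 genes of transport to the Golgi 5 were higher and 1 lower with age on APdE9 sections, and 9 higher and 1 lower on WT sections. With the APdE9 section in adult cells 3 of them were lower and 0 higher, the coat proteins Sec23a, which fell by 0.52, and Sar1a, which fell by 0.44, and the retrieval receptor Kdelr2, which fell by 0.38. In neonatal cells 0 of 23 were called in each of these lists, with 2 and 1 at an unadjusted p under 0.05.

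Of the 11 measured collagen folding factors 1 was higher and 3 lower on APdE9 sections in adult cells, led by P4ha2, a subunit of prolyl hydroxylase, which fell by 1.05. With age 1 was higher and 3 lower on APdE9 sections, and 4 higher and 3 lower on WT sections. Of 18 heat shock proteins of the cytosol 3 were higher and 2 lower on APdE9 sections in adult cells, where Hspa8, the constitutive Hsp70 of the cytosol, fell by 0.66 (adjusted p = 0.00409). In neonatal cells 0 were called and 1 had an unadjusted p under 0.05. With age 4 were higher and 0 lower on APdE9 sections, and 4 higher and 2 lower on WT sections. Of 10 mitochondrial chaperones at most 1 was called in any comparison.

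**Figure D5:**
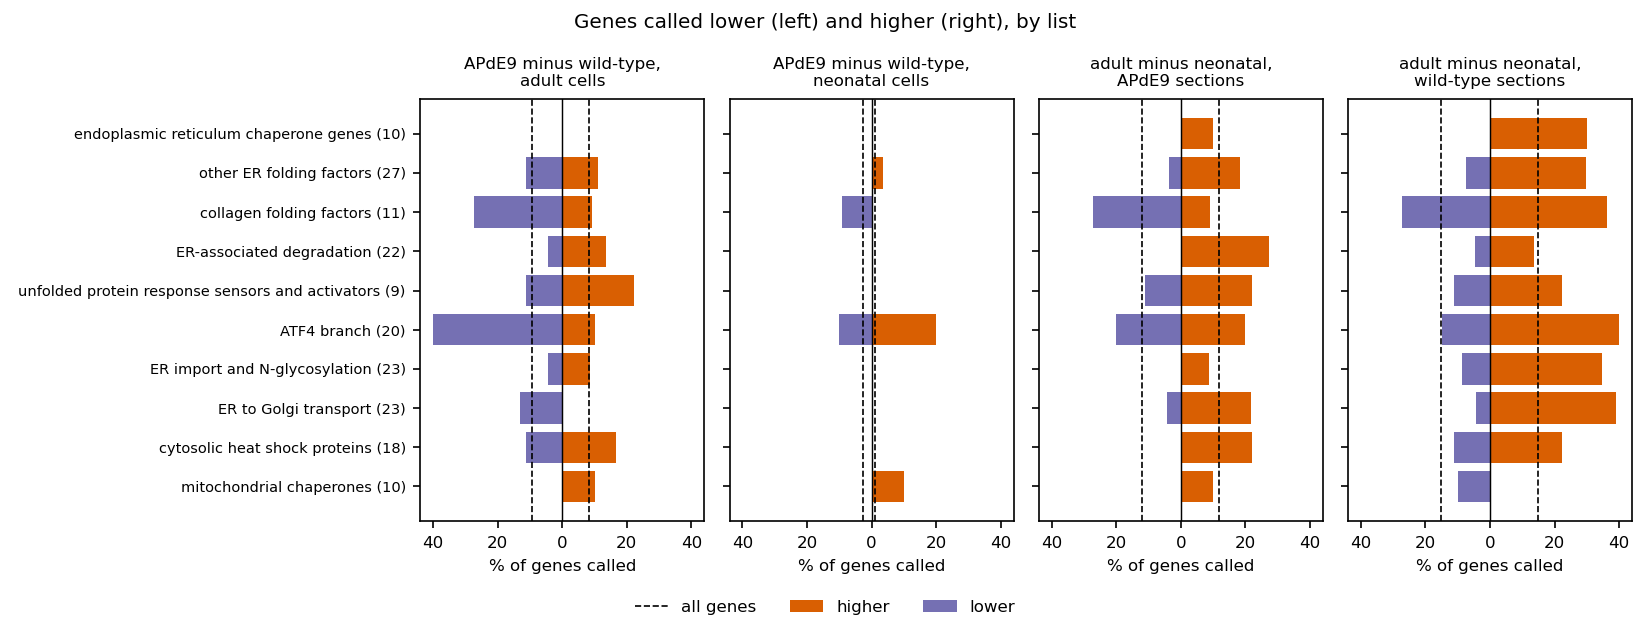
Percent of the genes of each list called lower (bars to the left) or higher (bars to the right) in the 4 comparisons of section and age; the number of genes measured stands beside each name, and dashed lines give the percent over all genes. ER stands for endoplasmic reticulum. The 10 chaperone genes have no bar in the section panels and bars to the right (1 gene on APdE9 sections, 3 on WT sections) in the age panels, and the ATF4 branch has the longest bar to the left in adult cells.

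To find genes with a pattern like that of each member, the root mean square difference of the centred log2 values over the 12 arrays was used. For Hspa5 the nearest were Eed (0.0755), Micalcl (0.0769), Hspa9 (0.0861), Mchr1 (0.0880) and Hspd1 (0.0883). Hspa9 and Hspd1 are the Hsp70 and the chaperonin of mitochondria. The nearest gene to Hsp90b1 was Dnttip2 (0.101), to Pdia4 Tmem167b (0.0656), to Pdia6 Tlnrd1 (0.0718) and to Dnajb11 Mier2 (0.0513). The nearest to Dnajc3 was Sf1 (0.0843), to Sdf2l1 Mettl16 (0.0903), to Xbp1 Emp3 (0.122), to Dnajb9 Prss22 (0.174) and to Herpud1 Mpzl3 (0.176). For each of the 10 genes, 0 of the other members were among its 50 nearest. This distance depends on the size of a change as well as on its direction. How often sets of other genes do the same was not counted. The count thus does not show whether the members move together.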

How the data were processed

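RNA of 12 pools was hybridised to Affymetrix arrays. RMA, with no version named, made the signals, per the submitters' processing notes. For 8 arrays the deposited values were read as log2, RMA's usual scale, although the labels state no log base. The deposited columns of the other 4 arrays were recorded as a score, since 6 values in them were over 100 in size; these were set to missing, none of them in a probe set described here, and the rest used as log2. All 45031 of 45031 probe sets without a gap, controls aside, had a median of 0 across the arrays (tolerance 1e-06). Levels were thus removed before deposit, and the precision rests on the number of arrays.

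Leaving 64 controls aside, 45037 of 45101 probe sets were tested. By GEO's platform annotation, 34945 had a single gene, 932 had several and 9160 had none, and 34741 of the first matched RefSeq (GRCm38.p6). Gene values were means of single-gene probe sets. limma 3.58.1 (R 4.3.3, data.table version 1.17.8) fitted 4 group means on all 12 arrays, with empirical Bayes without a trend and Benjamini-Hochberg adjustment over 18193 genes or 45037 probe sets; ± beside a difference is its SE (n = 3 arrays a group). The fitting code was tested on simulated data. Figures used matplotlib 3.10.9.

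All 10 members are named, with those of their probe sets that a result turns on. Of each other list, up to 4 called genes with the largest differences in a comparison could be named, of marker lists up to 3, and the nearest gene in pattern (5 for Hspa5); names beyond that were chosen after their values were seen, such as a gene followed from one comparison to another. The members and lists were chosen with earlier results of these data known. Deviations from group means of equally numbered arrays correlated over genes at 0.305, 0.147 and 0.519 for the section in neonatal cells and at 0.46, 0.206 and 0.473 for age on APdE9 sections, all over 0.1, so the numbers were taken to pair the arrays there. For the section in adult cells (0.348, -0.147 and 0.496) and age on WT sections (0.404, 0.0247 and 0.405) they were not. The alternatives tried were other normalizations, gene summaries, filters, thresholds, weights, a replicate block and leaving out each array.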

Additional observations from a re-analysis of the deposited data

Results flagged for a closer look

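Values from 2 probe sets of Dnajc3 were picked out because the effect of the APdE9 section differed between adult and neonatal cells by a test of that difference. For probe set 1419162_s_at the adult minus the neonatal section effect was 0.75 ± 0.17 (SE), with an adjusted p of 0.0194 in limma's fit over all probe sets. For 1419163_s_at it was 0.79 ± 0.16, with an adjusted p of 0.0114. In both, all 3 APdE9 arrays lay above the WT arrays in adult cells. These were 2 of the 23 probe sets described here, where 6.73% of all probe sets were called for this difference. The call of 1419162_s_at was lost on leaving out 1 array (adjusted p = 0.0571 in limma's fit). Another probe set of Dnajc3, 1449372_at, ran the opposite way, and Dnajc3 as a gene was not called (adjusted p = 0.202). Groups of 3 arrays were not tested for an outlying array.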

How the results depend on the processing

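Over 26 alternatives, 12 of which left out 1 array, the number of the 10 genes called changed as follows. Without an alternative the counts were 0 for the section in adult cells, 0 in neonatal cells, 0 for the difference of both, 1 for age on APdE9 sections and 3 on WT sections. Array weights gave 2 for the section in neonatal cells, where calls over all genes also rose, from 684 to 2160. They gave 2 for age on APdE9 sections and 5 on WT sections. The replicate block gave 1 for the section in adult cells (Dnajb9, adjusted p = 0.00157), 1 in neonatal cells, 2 for the difference (Dnajb9, 0.0166, and Herpud1, 0.0305) and 4 for age on APdE9 sections; for Herpud1 with age on WT sections it gave 0.00113. For the section in adult cells and age on WT sections the numbers were not taken to pair the arrays. There the arrays numbered 2 correlated at -0.147 and 0.0247. The block terms are shared by all 12 arrays, so the block's calls in every comparison also rest on those arrays. Whether a block suits those fits was not tested, so its calls stand beside those without a block and not in their place. The median of the probe sets gave 1 for the difference and 2 for age on APdE9 sections. The probe set with the largest SD gave 2 for the section in adult cells and 2 for age on APdE9 sections, and it turned Dnajc3 to -0.77 for the section in adult cells (adjusted p = 0.0421) and to 0.97 for age on WT sections (0.0077), since it takes 1449372_at alone. A threshold of 0.1 gave 1 for the section in adult cells and 4 for age on APdE9 sections. Counting a gene by any of its probe sets gave 1 for the section in adult cells, 1 for the difference, 3 for age on APdE9 sections and 5 on WT sections. Leaving out 1 array gave 0 to 1 for the section in adult cells, 0 to 1 in neonatal cells, 0 to 2 for the difference, 1 to 2 for age on APdE9 sections and 2 to 4 on WT sections. Quantile normalization ended the calls of Pdia4 1416497_at (adjusted p = 0.0905) and Pdia6 1423648_at (0.0641).

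Over all genes, the 3213 calls for the section in adult cells, 684 in neonatal cells, 1831 for the difference and 4279 for age on APdE9 sections became 1844, 248, 818 and 2850 at a threshold of 0.01. In neonatal cells they became 1032 at 0.1, 2160 with array weights and 272 with only the groups compared, and the difference 3427 with array weights. Leaving out 1 array gave 2174 to 3382 for the section in adult cells, 263 to 761 in neonatal cells and 1208 to 1811 for the difference. The cause of these changes was not tested. With 3 arrays a group and no levels, small effects and expression near background were beyond reach.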

Other observations

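The mean of the 10 chaperone genes was lowest on the array numbered 3 in each of the 4 groups. It was 0.06 on that array among adult cells on APdE9 sections, 0.05 among adult cells on WT sections, -0.25 among neonatal cells on APdE9 sections and -0.21 among neonatal cells on WT sections. The highest array of each group lay at 0.16, 0.19, 0.01 and -0.05 in the same order. Hspa5, Pdia4, Dnajb9 and Herpud1 were lowest on array 3 in 4 of 4 groups, while Xbp1 and Dnajb11 were highest on array 3 in 3 of 4. How many of all genes do the same was not counted. Over all genes the deviations of the arrays numbered 3 correlated at 0.405 to 0.519 in the 4 comparisons. The mean of the 18 cytosolic heat shock proteins, of the 20 genes of the ATF4 branch and of the 9 plasma cell and B cell markers was also lowest on array 3 in 4 of 4 groups. Every other list was lowest on array 3 in at most 2 of 4 groups, and the fibroblast and mural cell markers were lowest on array 1 in 4 of 4. For the heat shock proteins array 3 lay at -0.21, -0.15, -0.40 and -0.27 in the order of groups above, and the highest array at 0.27, 0.39, 0.20 and 0.00. For the ATF4 branch array 3 lay at -0.31, 0.08, -0.29 and -0.23, and the highest array at -0.06, 0.39, 0.16 and 0.01. What the replicate number stands for is not given in the labels used here.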
